A study of Mus musculus with 7 samples.

Results

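Immunoglobulin and T cell receptor loci were examined in chromatin accessibility data from LSK cells (Lineage-, c-Kit+, Sca-1+), a bone marrow fraction of stem cells and early multipotent progenitors. ATAC-Seq, which marks accessible DNA by transposase insertion, was performed on 4 WTAkita and 3 Ctrl libraries, each from 50000 sorted cells of adult offspring 8 to 12 weeks old. WTAkita offspring were wild-type C57BL/6 mice born to diabetic Ins2 Akita/+ dams, whose insulin gene mutation reduces insulin secretion and which had been fed a high-fat diet before breeding; Ctrl offspring came from normal pregnancies. The methods give the same diet for the wild-type littermate females of these dams and describe the Ctrl breeding as similar. The offspring of both groups were labelled wild type, and since the number of mice behind a library is not stated, the p-values measure the spread between libraries. A member region was a stretch of touching peaks, from any library, with a summit in 1 of the loci Igh, Igk, Igl, Tra/Trd, Trb or Trg. Each locus ran between its outermost annotated segment genes, plus 50 kb on each side. Of 176367 regions in the genome, 707 were members: 282 at Igh, 270 at Tra/Trd, 82 at Trb, 43 at Igk, 29 at Trg and 1 at Igl.

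These loci encode antigen receptors in many separate pieces. In developing B and T cells, the RAG1 and RAG2 proteins cut beside a variable (V), in some loci a diversity (D), and a joining (J) segment, and the cut ends are joined into a receptor exon upstream of the constant (C) exons. The cut is directed by the recombination signal, a heptamer and a nonamer held apart by a spacer, which lies directly 3′ of every V segment, and chromatin opening at the segments precedes it. LSK cells lie upstream of both lineages, although they include progenitors primed for lymphoid fate.

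At Igh the summits of V gene sites lay 3′ of the gene, on or past the recombination signal. The following stretches run from the last 10 bases of a V gene into the flank that follows it, in the reading direction of the gene (mm10, minus strand). They show the 3 strongest Igh sites, a site of each of the Ighv8 and Ighv5 families, whose signals are followed by other words, and a V gene without a site. Capitals mark the positions of the heptamer and of the nonamer, then any CTCF word or Runx word (defined with the motif counts).
Ighv1-61: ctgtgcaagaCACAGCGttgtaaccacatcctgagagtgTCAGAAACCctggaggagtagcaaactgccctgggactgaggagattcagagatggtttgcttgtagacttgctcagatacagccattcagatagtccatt
Ighv1-52: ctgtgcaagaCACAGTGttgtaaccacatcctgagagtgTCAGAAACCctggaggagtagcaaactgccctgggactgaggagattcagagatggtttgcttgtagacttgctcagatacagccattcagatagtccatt
Ighv1-58: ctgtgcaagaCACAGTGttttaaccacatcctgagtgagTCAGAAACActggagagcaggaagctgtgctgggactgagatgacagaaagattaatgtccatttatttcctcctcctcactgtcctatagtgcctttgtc
Ighv8-6: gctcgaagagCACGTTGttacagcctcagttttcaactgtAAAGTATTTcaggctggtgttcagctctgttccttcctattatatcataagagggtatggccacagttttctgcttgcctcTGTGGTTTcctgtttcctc
Ighv5-2: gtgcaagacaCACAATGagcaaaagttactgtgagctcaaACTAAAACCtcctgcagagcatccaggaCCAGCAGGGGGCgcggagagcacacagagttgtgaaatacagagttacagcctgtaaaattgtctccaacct
Ighv1-4: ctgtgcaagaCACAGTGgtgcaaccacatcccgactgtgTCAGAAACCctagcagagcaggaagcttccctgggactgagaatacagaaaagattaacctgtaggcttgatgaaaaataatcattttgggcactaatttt

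The 6 stretches lie at chr12:115359010-115359149, chr12:115145357-115145496, chr12:115312036-115312175, chr12:115165647-115165786, chr12:113578374-113578513 and chr12:114487006-114487145, in the order printed. In Ighv1-61, Ighv1-52 and Ighv1-58 the summits lay 44, 55 and 52 bp past the gene's last base, just beyond the nonamer. In Ighv1-61 the heptamer position differed from CACAGTG at 1 base. In Ighv8-6 the summit lay 153 bp past the end, beyond the printed stretch, which ends with a Runx word, and the heptamer position there differed from CACAGTG at 2 bases and the nonamer position from the consensus nonamer at 6 bases. In Ighv5-2 the summit lay 112 bp past the end and a CTCF word followed the signal. No peak was called within 1 kb of Ighv1-4, whose heptamer matched at every base. Ighv1-61 and Ighv1-52 were identical at 139 of 140 bases in this stretch, against 72 of 140 for Ighv1-61 and Ighv1-58.

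The loci, counted here with their 50 kb flanks, differed widely in the density of accessible sites. Tra/Trd held 142 regions per Mb, Trb 107, Trg 106, Igh 99.1, Igk 13.1 and Igl 3.34, against 64.7 per Mb over the genome. In all, 469 member regions (66.3%) were called in all 7 libraries, where the share over all regions was 61.3%. The value followed here is the authors' fold enrichment, the number of tags at a summit over that library's local background, each with a pseudocount of 1, and a region took its highest summit in each library. Among regions called in all libraries its median was 11.5 at Trg, 11.4 at Tra/Trd, 8.96 at Igh, 7.98 at Igk and 6.93 at Trb, with 8.29 over the genome. The median summit of these member regions held 52 tags, so weak sites rest on few tags. In bulk cells a site open in a few cells and a site weakly open in most of them cannot be told apart.

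The 50 kb limit added 62 of the 707 regions. At Trg the flanks held 14 of the 29 regions, among them the strongest, at the neighbouring gene Stard3nl. At Igk they held 9 of 43, among them the strongest, at the neighbouring gene Rpia. At the far end of Igh, the member 612 bp inside the limit had a mean fold enrichment of 4.09 in WTAkita and 4.34 in Ctrl libraries, and the nearest region 4087 bp outside it had 4.02 in WTAkita and 4.45 in Ctrl libraries. Beside Trg the member 6939 bp inside, which is that Stard3nl site, had 23.4 in WTAkita and 23.01 in Ctrl libraries. The region 13560 bp outside had 4.07 in WTAkita and 4.77 in Ctrl libraries.

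**Figure D1:**
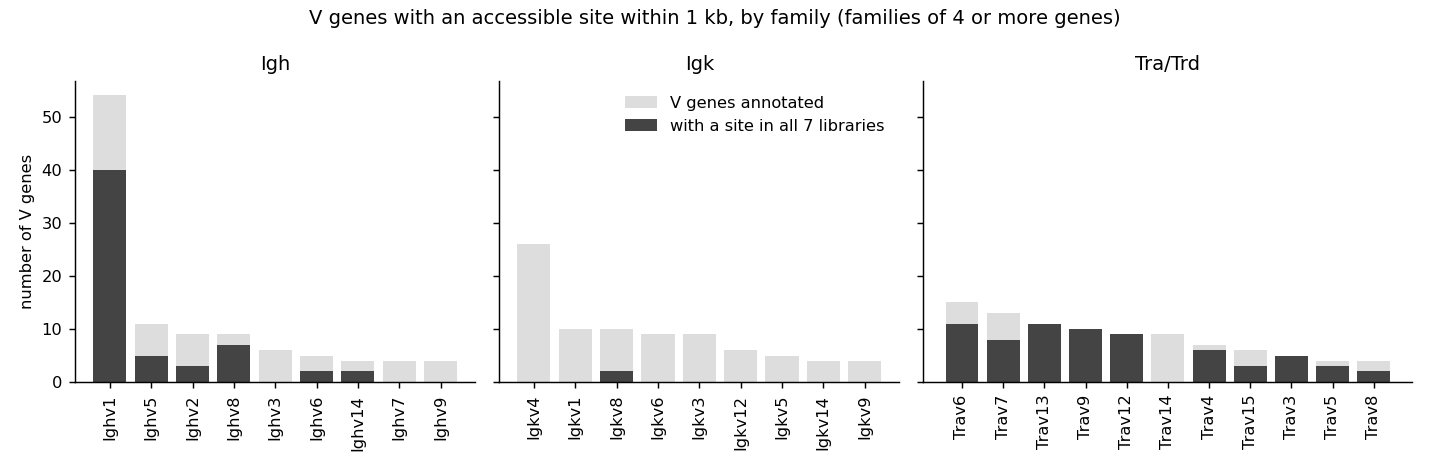
Number of V genes annotated (light bars) and of those with an accessible site within 1 kb in all 7 libraries (dark bars), by V family, for families of 4 or more genes at Igh, Igk and Tra/Trd. Ighv1 held 40 of the 64 Igh V genes with a site, whereas Igkv4, the largest Igk family, had none.

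V genes differed by family in how often they had a site, and within Ighv1 also by position. A region called in all 7 libraries lay within 1 kb of 64 of 115 Igh V genes (55.7%), 81 of 115 at Tra/Trd (70.4%), 17 of 22 at Trb, 4 of 7 at Trg and 5 of 102 at Igk, and of none of the 3 Igl V genes. At Igh, the Ighv1 family, the large J558 group that fills the distal part of the locus, had a site at 40 of 54 genes with a median fold enrichment of 21.1, ranging between 5.05 and 29.3. All 14 Ighv1 genes without a region lay in the stretch from Ighv1-4 to Ighv1-43, among others that had a site. Every Ighv1 gene beyond Ighv1-43 had a site in every library. In the median region at Ighv1 genes 32.7% of the 50-base words within 150 bp of the summit occur more than once in the assembly, and 80.2% and 85.3% do at Ighv1-61 and Ighv1-52, so their values may share reads, against 5.16% at Ighv1-58. Ighv8, interspersed with it, had 7 of 9 at a median of 13.7. The families nearest the D segments were lower: Ighv5 had 5 of 11 at a median of 8.96, and Ighv2 (Q52) 3 of 9 at 6.61. None of the 6 Ighv3 genes, 4 Ighv7 genes or 4 Ighv9 genes had a site in every library. V pseudogenes had sites less often by count, at 17 of 81 for Igh, 0 of 74 for Igk and 3 of 13 for Trb. At Tra/Trd the share was nearer that of the genes, at 13 of 21 (61.9%, against 70.4%). These shares were not tested against those of the genes.

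At Tra/Trd some families were marked in full. All 11 Trav13 genes, 10 Trav9 genes, 9 Trav12 genes and 5 Trav3 genes had a site in every library, whereas 11 of 15 Trav6 genes, 8 of 13 Trav7 genes and none of 9 Trav14 genes did. Trdv1, a delta V gene, had a site of 23.1, and the V gene B230359F08Rik one of 27.8. Mouse Tra carries V cassettes in near-identical copies, whose genes bear a d, an n or no letter in the name. Sites in every library were found at 25 of 34 d genes, 21 of 28 n genes and 32 of 46 genes without a letter, with median fold enrichments of 13.5, 14.3 and 11.6. In the median site of the d genes and of the n genes, 100% of the 50-base words within 150 bp of the summit occurred more than once in the assembly, against 27.6% for genes without a letter. The treatment of reads with several placements is not stated, so values of such copies may share reads. At no locus were recurring words counted around V genes without a region, so whether missing calls follow from such reads was not tested.

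**Figure D2:**
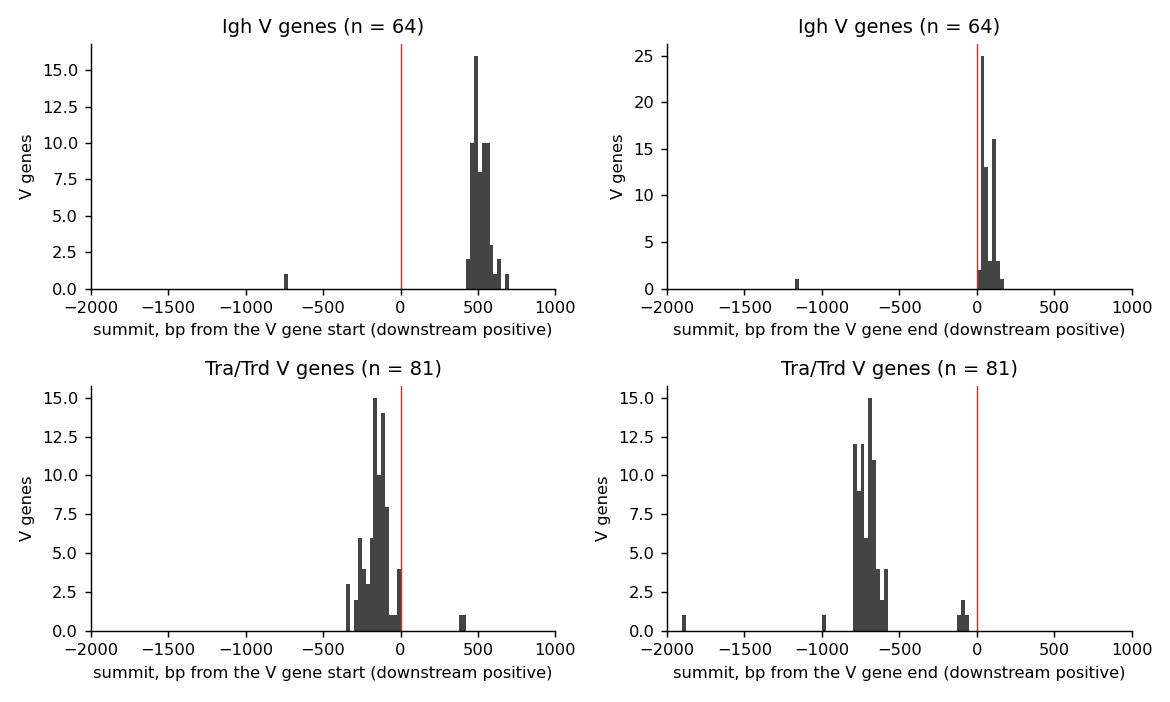
Position of the strongest summit relative to the annotated start (left) and end (right) of the V gene, in bp with downstream positive, for the 64 Igh V genes (top) and 81 Tra/Trd V genes (bottom) with a site in all 7 libraries; bars count V genes in steps of 25 bp and the red line marks 0. Igh summits gather just past the gene end and Tra/Trd summits just before the gene start.

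The sites sat on opposite sides of the V genes in the 2 large loci. At Igh, 63 of 64 summits lay 0 to 200 bp past the 3′ end of the V gene, with a median of 54 bp. In 16 of the 64 the summit lay within the heptamer, spacer and nonamer, all of them in the Ighv1 family, and most of the others lay past the nonamer. The exception was Ighv1-67, whose strongest region lay 726 bp before the gene start, with a weaker one 31 bp past the end. In the Ighv1 family the median was 41.5 bp, against 108 bp for Ighv5, 117 bp for Ighv2 and 130 bp for Ighv8. Among Igh V pseudogenes 16 of 17 summits lay in the same 200 bp. At Tra/Trd, by contrast, 74 of 81 summits lay within 300 bp before the start of the V gene, where V promoters lie, with a median of -145 bp. At Trg the sites of Tcrg-V3, Tcrg-V6 and Tcrg-V7 lay 100, 139 and 261 bp before the start, and that of Tcrg-V5 lay 104 bp past the end. Trb V genes had no common side: 7 of 17 summits lay within 200 bp past the end and 1 within 300 bp before the start. Of the 5 Igk V genes with a site, 3 were the Igkv10 genes and 2 belonged to Igkv8 (Igkv8-21 and Igkv8-30), and 4 of the 5 summits lay past the end of the gene.

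An exact heptamer was also common at V genes without a site. Of all Igh V genes, 45 of 64 with a site in every library and 29 of 40 with no region carried CACAGTG at the gene end. The families differed: at Ighv1 these were 38 of 40 and 9 of 14, and at Ighv5 they were 0 of 5 and 4 of 5. At Igk 86 of 96 V genes without any region carried it. At Tra/Trd it was present at 73 of 81 genes with a site, although the summits there lay before the gene, and at 16 of 21 genes with no region.

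**Figure D3:**
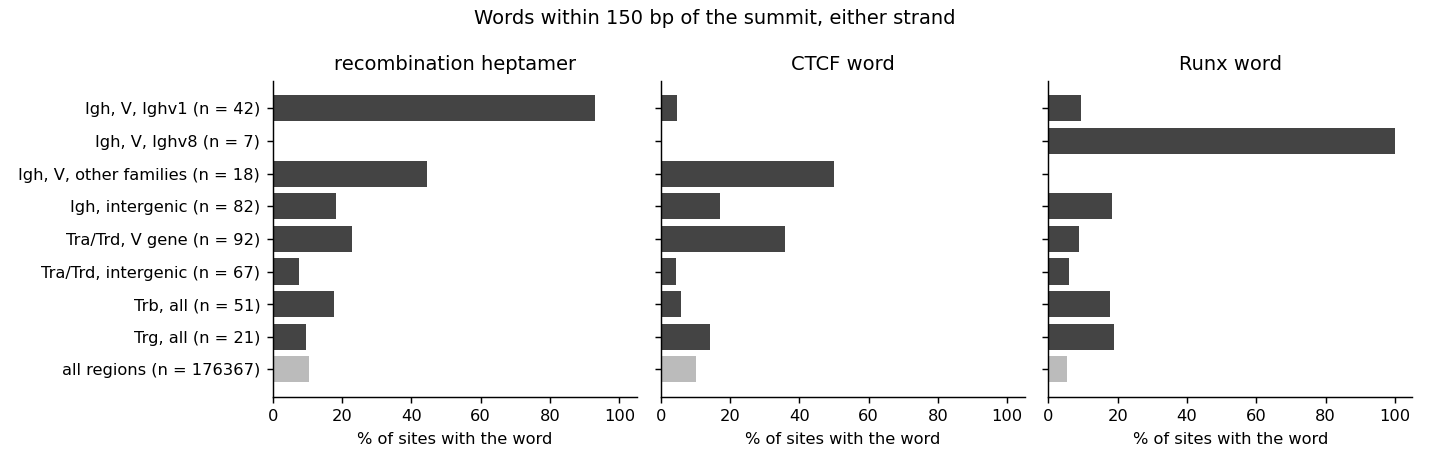
Share of regions called in all 7 libraries with the recombination heptamer, the CTCF word and the Runx word within 150 bp of the summit on either strand, by locus and class (dark bars, number of regions beside each), and over all 176367 regions of the genome (light bar). The heptamer is most frequent at Ighv1, where the window covers the gene end that carries it. The Runx word is most frequent at Ighv8 and the CTCF word at the other Igh V families and Tra/Trd V genes. Regions of the same family or of cassette copies are not independent.

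The words near the summits differed between V families. Each word was searched within 150 bp of the summit on both strands, and none of them contains another: the heptamer CACAGTG, a CTCF word taken from the core of its known motif, a Runx word TGTGGTTT, the octamer ATGCAAAT of V gene promoters, the E2A word CAGGTG, the PU.1 word GAGGAAGT and the cAMP response element TGACGTCA. At Ighv1 genes 39 of 42 regions held the heptamer, against 10.4% of all regions, and 2 of 42 the CTCF word. The heptamer share follows from position. Ighv1 summits lay a median of 41.5 bp past the gene end, where 38 of the 40 genes with a site carry CACAGTG. All 7 regions at Ighv8 genes held the Runx word, against 5.2% of all regions. The 7 regions at Ighv8 share their ancestry, as do the 42 at Ighv1, and are not independent. At the other Igh V families 9 of 18 regions held the CTCF word, against 10.3% of all regions. At Tra/Trd V genes 33 of 92 regions held it, 31 of them within 50 bp of the summit, whereas it was found in 3 of 67 Tra/Trd regions between genes. Many of the 92 regions belong to cassette copies and are not independent. In 60 of them over 50% of the 50-base words recur in the assembly. The octamer was found at 0 of 92 Tra/Trd V regions and 2 of 67 Igh V regions, with 1.53% over all regions. At Igh V genes with a site in every library the median summit lay 508 bp past the gene start. Of these 64 summits, 0 lay within 300 bp before it, so the count does not show whether Igh V promoters hold the octamer. Of the 469 member regions, 21.96% held the E2A word, 6.82% the PU.1 word and 0.426% the cAMP response element, against 20.6%, 9.80% and 0.596% of all regions. A match is a description of the letters, not a site of binding.

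The Tra/Trd V sites with a CTCF word are shown for Trdv1 and Trav7-4, among the strongest, and for Trav12d-1, the V gene site that was lowest in WTAkita relative to Ctrl. Each stretch is centred on the summit and runs in the reading direction of the gene (mm10, plus strand), with the CTCF word in capitals.
Trdv1: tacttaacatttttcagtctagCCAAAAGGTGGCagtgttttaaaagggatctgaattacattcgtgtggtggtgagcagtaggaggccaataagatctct
Trav7-4: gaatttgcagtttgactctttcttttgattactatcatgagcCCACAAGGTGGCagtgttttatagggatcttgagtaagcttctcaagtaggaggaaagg
Trav12d-1: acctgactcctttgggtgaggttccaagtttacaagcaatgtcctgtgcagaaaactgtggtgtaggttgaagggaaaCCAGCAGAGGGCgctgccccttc

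These 3 stretches lie at chr14:53881420-53881520, chr14:53460897-53460997 and chr14:52844295-52844395. The word lay upstream of the summit in Trdv1, spanned it in Trav7-4 and lay downstream of it in Trav12d-1. Trdv1 had fold enrichments of 18.8, 21.7, 24.5 and 24.6 in WTAkita libraries, against 21.1, 27.3 and 23.4 in Ctrl libraries. Trav7-4 had 14.5, 17.9, 22.8 and 25.7 in WTAkita libraries, against 20.7, 26.9 and 22.7 in Ctrl libraries. At both genes the groups overlapped.

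The D, J and C segments were mostly without sites. At Igh, 1 of 19 D genes had a region in every library: Ighd4-1 (DQ52), the D gene next to the J segments, with a mean fold enrichment of 11.6, whose region also lay within 1 kb of Ighj1 and Ighj2. The other D genes with any region stayed at or below 3.25. At Tra/Trd 8 of 53 J genes lay within 1 kb of a region in every library, several of which share a region, among them Traj49 (5.21) and Traj42 (6.21), and Trdd2 had one of 6.08. All 13 Trb J genes lay near such a region. The strongest within 1 kb had 4.46 or 4.71, since neighbouring J genes share it. Of the 2 Trb D genes 1 lay near such a region, at 3.78. C genes with a region in every library were Igha (5.24), Igkc (4.84), Trac (6.67) and Trdc (3.42). No Igk, Igl or Trg J gene and no Trb, Igl or Trg C gene had one.

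Regions between genes held some of the strongest sites, and several lay in intervals known for regulatory elements. The strongest of all members lay between Trav7d-2 and Trav4d-2 (chr14:52700481-52701707), with fold enrichments of 26.7, 32.0, 34.6 and 34.7 in WTAkita libraries, against 29.9, 35.6 and 32.2 in Ctrl libraries. Its counterpart in the copy without a letter, between Trav7-2 and Trav4-2, had 26.7, 29.8, 33.5 and 33.2 in WTAkita libraries, against 29.4, 34.1 and 32.0 in Ctrl libraries. Each ranked above 99.9% of all regions called in every library, and the groups overlapped at both. At Igk, where V genes had few sites, 2 regions between Igkv2-112 and Igkv14-111 reached means of 23.2 and 22.8, and 96.0% and 100% of their 50-base words recur in the assembly.

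The interval between the last Igk V gene and the first J gene, known to hold the Cer and Sis elements that restrain rearrangement of nearby V genes, held 3 regions, the strongest 8.125 kb from Igkj1. It had fold enrichments of 18.4, 18.7, 22.8 and 22.3 in WTAkita libraries, against 19.9, 22.2 and 22.9 in Ctrl libraries. The intron between Igkj5 and Igkc, which carries the intronic kappa enhancer, held a far weaker region, with 4.44, 4.56, 4.24 and 6.75 in WTAkita libraries, against 5.38, 4.26 and 4.23 in Ctrl libraries. At Igh, the interval between Ighm and the J genes, home of the intronic enhancer, had 7.13, 6.78, 7.85 and 8.06 in WTAkita libraries, against 6.89, 6.93 and 7.89 in Ctrl libraries. In the 50 kb 3′ of Igha, where the 3′ regulatory region and its insulators lie, 12 regions were called in every library, and the strongest, 49.2 kb from Igha, averaged 10.6 ± 1.74 in WTAkita and 11.1 ± 2.93 in Ctrl libraries (SD, n = 4 and 3).

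At the T cell receptor loci the corresponding intervals were accessible as well. Between Trdc and the first J alpha gene a single region had 9.08, 12.2, 15.3 and 13.7 in WTAkita libraries, against 11.6, 14.7 and 14.7 in Ctrl libraries. Between Trbc2 and Trbv31, the interval of the beta enhancer, the region had 9.90, 11.999, 13.2 and 13.4 in WTAkita libraries, against 11.3, 12.5 and 13.9 in Ctrl libraries. The strongest Trb region lay 15.0 kb before Trbd1 and averaged 26.1 ± 3.26 in WTAkita and 25.2 ± 2.49 in Ctrl libraries. On the 3′ side of Tcrg-C1 the strongest region averaged 17.8 ± 1.47 in WTAkita and 17.97 ± 1.07 in Ctrl libraries. In the strongest region of each of the 13 such intervals that held one, fold enrichments of the groups overlapped, at unadjusted p between 0.0945 and 0.905 (limma).

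The Igk site and both Trb sites are shown, as the strongest of the intervals beside the J and D genes and of the beta enhancer interval. Each is centred on the summit on the plus strand of mm10, and capitals mark any of the searched words.
Igkv3-1 to Igkj1: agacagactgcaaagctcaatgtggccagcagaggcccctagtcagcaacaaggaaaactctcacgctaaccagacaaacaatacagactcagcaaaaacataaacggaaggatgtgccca
Trbc2 to Trbv31: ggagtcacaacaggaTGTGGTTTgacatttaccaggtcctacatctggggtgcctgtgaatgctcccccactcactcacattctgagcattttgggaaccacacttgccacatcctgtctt
Trbv30 to Trbd1: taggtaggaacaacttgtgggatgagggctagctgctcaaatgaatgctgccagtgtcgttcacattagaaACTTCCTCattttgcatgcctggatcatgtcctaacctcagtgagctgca

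They lie at chr6:70714377-70714497, chr6:41554449-41554569 and chr6:41518103-41518223. In the printed bases, the stretch between Trbc2 and Trbv31 holds a Runx word, that between Trbv30 and Trbd1 the PU.1 word on the other strand, and the Igk stretch none of the words. Within 150 bp of the summit, the E2A word was also found at the Igk site and between Trbc2 and Trbv31, and the heptamer between Trbv30 and Trbd1.

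Whether a diabetic pregnancy left a mark at these loci in the offspring was asked region by region and locus by locus. For regions called in all 7 libraries, log2 fold enrichment was quantile-normalized and tested with limma over all 108032 such regions of the genome. No member region passed an adjusted p of 0.05 (0 of 469), and 0% of all regions did. At an unadjusted p under 0.05 there were 17 member regions (3.62%), against 3.86% of all regions. Of these, 8 were higher in WTAkita (1.71%, against 1.76% of all regions) and 9 lower (1.92%, against 2.1%). Normalized values of the groups did not overlap in 18 member regions (3.84%), against 4.71% of all regions; 8 were higher in WTAkita (1.71%, against 2.45%) and 10 lower (2.13%, against 2.26%). The median difference was 0.01 on the log2 scale for member regions and 0.01 for all regions. The differences of member regions lay between -0.48 and 0.67, and 51.6% were above 0, against 52.1% of all regions.

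**Figure D4:**
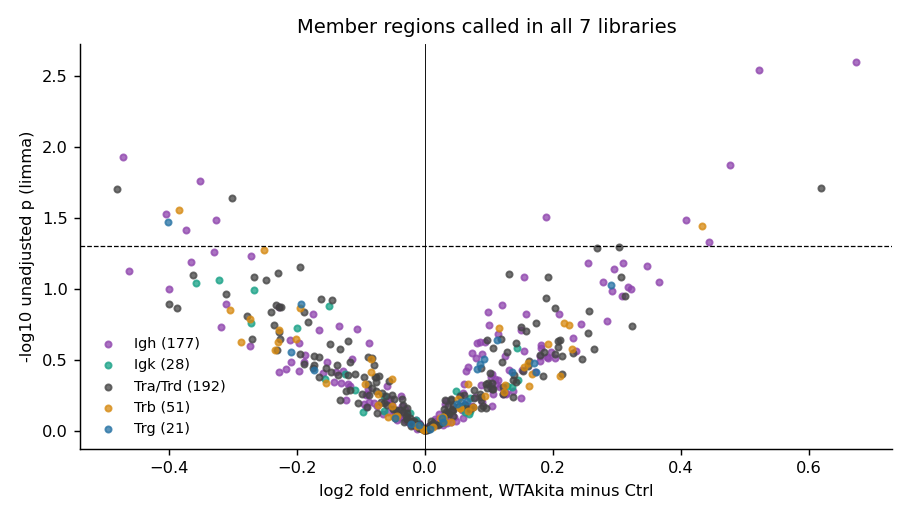
Difference in normalized log2 fold enrichment, WTAkita minus Ctrl (x axis), against the -log10 of the unadjusted limma p (y axis), for the 469 member regions called in all 7 libraries, coloured by locus. The dashed line marks p of 0.05; 17 regions lie above it and none of them passed after adjustment over 108032 regions.

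Of the 17 regions at an unadjusted p under 0.05, 10 were among the 82 regions between genes at Igh (12.2%, against 3.86% of all regions) and 1 among the 67 at Igh V genes; the difference between these classes was not tested. Between Ighv1-42 and Ighv1-43 (chr12:114939600-114939973) the values were 5.45, 5.32, 9.42 and 6.31 in WTAkita libraries, against 3.52, 4.26 and 4.98 in Ctrl libraries. The groups did not overlap, and the difference was 0.67 ± 0.18 on the log2 scale (SE; limma, unadjusted p = 0.00252, adjusted p = 1.00). Between Igha and Ighe, 4.96 kb upstream of Igha, the values were 7.45, 7.80, 10.6 and 9.58 in WTAkita libraries, against 6.62, 7.16 and 5.48 in Ctrl libraries, a difference of 0.52 ± 0.15 (SE; limma, adjusted p = 1.00). Between Ighv8-14 and Ighv1-75, and between Ighv1-49 and Ighv8-5, the differences were 0.48 ± 0.17 and 0.41 ± 0.17 (SE), and the groups overlapped in fold enrichment.

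In the other direction, the region between Ighv1-75 and Ighv8-15 had 4.36, 5.03, 4.48 and 5.77 in WTAkita libraries, against 6.20, 8.77 and 6.60 in Ctrl libraries. The groups did not overlap, and the difference was -0.47 ± 0.16 (SE; limma, unadjusted p = 0.0117, adjusted p = 1.00). The Trav12d-1 site had 3.83, 5.51, 7.14 and 4.79 in WTAkita libraries, against 7.24, 9.07 and 6.60 in Ctrl libraries, a difference of -0.48 ± 0.18 (SE; adjusted p = 1.00), and WTAkita replicate 3 lay inside the range of Ctrl. The remaining named regions were a site 18.2 kb beyond Ighv1-86 (-0.35), 2 sites 42.2 and 12.2 kb 3′ of Igha (-0.41 and -0.33), a site in the pseudogene Gm38018, 27.7 kb before Trbd1 (-0.39), and the pseudogene Trav5n-2 (-0.30). None of these passed after adjustment. In the region between Ighv1-75 and Ighv8-15, at Trav12d-1 and at Trav5n-2, 100% of the 50-base words recur in the assembly, so these values may share reads with copies.

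Presence or absence of peaks gave the same picture by count. No member region was called in all 4 WTAkita and no Ctrl library, where the share over all regions was 0.0919%. A single member was called in all 3 Ctrl and no WTAkita library, against 0.112% of all regions: a weak peak in the noncoding gene Gm19331, among the Ighv1 genes, with fold enrichments of 2.46, 4.22 and 3.66 in Ctrl libraries. The only peak at Igl was in 1 Ctrl library.

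**Figure D5:**
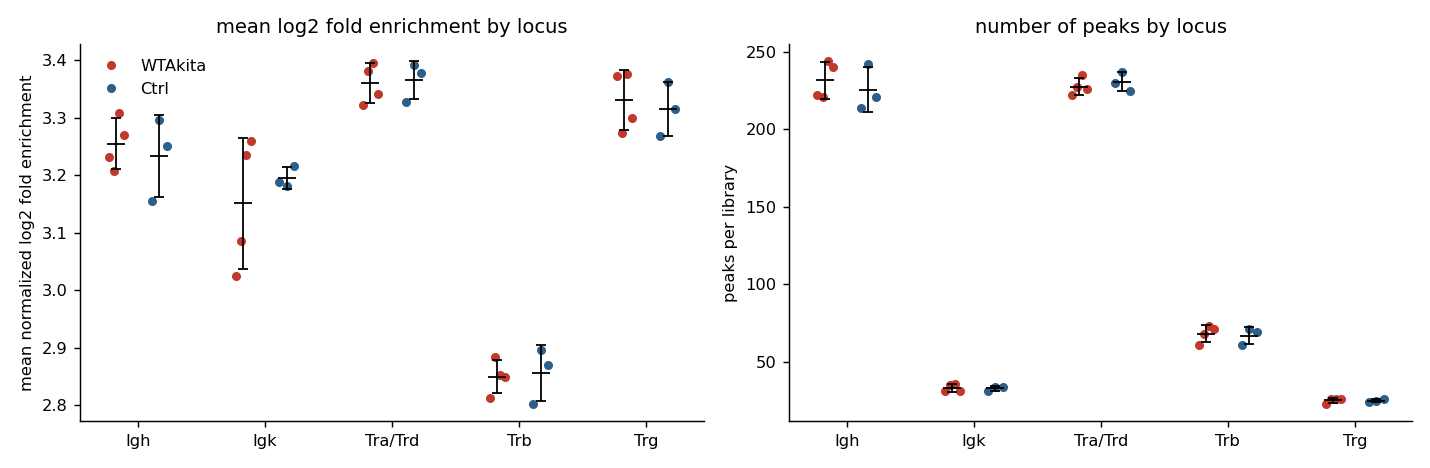
Mean normalized log2 fold enrichment of the regions called in all 7 libraries (left) and number of peaks (right) by locus, with WTAkita libraries in red left of Ctrl libraries in blue; points are libraries and bars the mean and SD (n = 4 and 3). The groups overlap at every locus in both measures.

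By locus, the groups did not differ beyond the spread between libraries. The mean normalized log2 fold enrichment at Igh was 3.23, 3.21, 3.31 and 3.27 in WTAkita libraries, against 3.16, 3.30 and 3.25 in Ctrl libraries, a difference of 0.02 (exact permutation test over the 35 splits, two-sided, p = 0.686). At Tra/Trd the group means were 3.36 ± 0.03 in WTAkita and 3.37 ± 0.03 in Ctrl libraries (SD; exact permutation p = 0.971). The largest difference in size among the 5 loci was at Igk, where the means were 3.15 ± 0.11 in WTAkita and 3.20 ± 0.02 in Ctrl libraries (SD; exact permutation p = 0.571); WTAkita replicates 1 and 2, at 3.02 and 3.09, lay below every Ctrl library. Trb and Trg differed by -0.01 and 0.01 (exact permutation p = 0.80 and 0.743). The smallest p this design allows is 0.0571, and adjusted over the loci every p was 0.971.

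Peak numbers over the 6 loci were 559, 577, 614 and 594 in WTAkita libraries, against 560, 609 and 576 in Ctrl libraries (exact permutation p = 0.80). At Igh there were 222, 221, 244 and 240 peaks in WTAkita libraries, against 214, 242 and 221 in Ctrl libraries, and no locus gave an exact permutation p under 0.514. WTAkita replicates 1 and 2 and Ctrl replicate 1 had the lowest median fold enrichment of their whole peak lists, and the peak lists held 137963 to 151552 peaks in WTAkita and 141709 to 147698 in Ctrl libraries. At V genes of all loci together, 213, 216, 224 and 220 of 250 regions were called in WTAkita libraries, against 208, 220 and 212 in Ctrl libraries.

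The genes that carry out and prepare recombination were followed at their promoters. Of 40 such genes, 38 had a region within 1 kb of the start site and 35 one in every library, and none of these 35 passed an adjusted p of 0.05. At an unadjusted p under 0.05 there were 3 (8.57%, against 3.86% of all regions). Of the 35 differences, 31 were above 0 (88.6%, against 52.1%), with a median of 0.05 on the log2 scale, against 0.01 over all regions. These promoters were stronger than the regions they are set against, at a median fold enrichment of 14.3, against 8.29. In the marker lists below, 5 of 7 LSK, 3 of 4 B cell, 2 of 2 T cell, 2 of 3 NK cell and 2 of 2 erythroid differences were above 0. So were 1 of 2 neutrophil and monocyte and 0 of 2 plasmacytoid dendritic cell differences. Whether the share is particular to recombination genes was not tested. No region was found at Dntt, the polymerase that adds untemplated bases at junctions, or at Igll1, a part of the surrogate light chain. The promoter of Rag1 had 9.07, 8.27, 10.3 and 8.90 in WTAkita libraries, against 7.66, 7.81 and 6.40 in Ctrl libraries. These values did not overlap, but the groups overlapped after normalization, where the difference was 0.39 ± 0.15 (SE; limma, unadjusted p = 0.0225, adjusted p = 1.00). Notch1, the receptor that directs T cell fate, had weak values of 2.99, 2.56, 2.61 and 2.84 in WTAkita libraries, against 2.04, 2.28 and 2.22 in Ctrl libraries (0.37 ± 0.14, SE; limma, adjusted p = 1.00). Bcl11b, a transcription factor of T cell commitment, lay below 0, with 7.46, 10.2, 9.91 and 11.4 in WTAkita libraries, against 11.97, 13.7 and 12.8 in Ctrl libraries (-0.33 ± 0.11, SE; limma, adjusted p = 1.00), and Tcf7, another T cell factor, followed at -0.08.

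Markers of other cell types were measured the same way. Of 8 LSK markers 7 had a promoter region in every library, of 8 B cell markers 4, and of 8 T cell markers 2; Ms4a1 and Igll1 among the B cell markers and Cd3d, Cd3e, Cd8a, Cd8b1 and Ptcra among the T cell markers had none, and Cd4 and Lck were the T cell markers with one in every library. Of the other lists, 3 of 4 NK cell, 2 of 3 plasmacytoid dendritic cell, 2 of 4 erythroid and 2 of 6 neutrophil and monocyte markers had one in every library. The summed fold enrichment of the B cell promoters was 34.2 to 42.9 in WTAkita and 39.6 to 42.0 in Ctrl libraries, and that of the T cell promoters 17.7 to 22.2 in WTAkita and 16.8 to 20.1 in Ctrl libraries. For NK cell promoters it was 23.8 to 37.3 in WTAkita and 25.4 to 31.4 in Ctrl libraries, and for plasmacytoid dendritic cell promoters 26.6 to 36.8 in WTAkita and 30.3 to 38.5 in Ctrl libraries. For erythroid promoters it was 11.8 to 18.2 in WTAkita and 13.3 to 16.1 in Ctrl libraries, and for neutrophil and monocyte promoters 14.1 to 15.7 in WTAkita and 15.5 to 17.9 in Ctrl libraries. Their part in the sites described here was not tested.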

How the data were processed

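ATAC-Seq peak lists of 7 libraries were analysed. Per the study's methods and the submitters' processing notes, the authors trimmed adapters (Trim Galore 0.4.2, cutadapt 1.9.1) before alignment with Bowtie2 (2.3.4.1), discarded duplicate reads and ran MACS2 (2.1.4 in those notes) on every library at p of 0.01 with no control library. The handling of multi-mapped reads and any mapping-quality filter are not given in the sources used. Each deposited peak has a fold enrichment (a ratio of tags over local background), a -log10 p-value, a -log10 q-value and a score made by the authors.

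Touching peaks of any library were merged into regions, and a region belonged to a locus if any of its summits lay there by GENCODE vM21 (mm10). Tags per summit were recovered from fold enrichment and the -log10 p-value. Estimated totals, from the background these implied, were 40500000 to 53100000 in WTAkita and 37600000 to 51900000 in Ctrl libraries. Log2 fold enrichment of regions called in all 7 libraries was quantile-normalized and tested with limma 3.58.1 (R 4.3.3, Benjamini-Hochberg); locus values were tested by exact two-sided permutation. Regions named in the text were the 3 strongest of each locus, up to 3 and 5 of the largest differences in each direction by 2 rankings, the strongest of known intervals and those called in 1 group only. Members and gene lists were chosen with earlier results of these data known. The fit was tested on simulated data.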

Additional observations from a re-analysis of the deposited data

Results flagged for a closer look

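Among 53 sets of values from the 4 WTAkita libraries, 2 held a library far from the other 3, where chance alone gives about 1 in 20. At Trg, WTAkita replicate 1 had 23 peaks and the other WTAkita replicates had 26 each, against 24, 25 and 26 in Ctrl libraries. At the site between Igkj5 and Igkc, WTAkita replicate 4 had a fold enrichment of 6.75, and the other WTAkita replicates had 4.44, 4.56 and 4.24, against 5.38, 4.26 and 4.23 in Ctrl libraries.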

How the results depend on the processing

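No member region passed an adjusted p of 0.05 under any alternative (limma). Over all regions, the count at an adjusted p of 0.05 was 37 with means of all peaks, 6 with the replicate block and 7 without WTAkita replicate 4. The 17 at an unadjusted p under 0.05 became 6 with depth-scaled summit tags (1.28%, against 0.832% of all regions). Without the 3 libraries whose median fold enrichment was lowest (WTAkita replicates 1 and 2 and Ctrl replicate 1) there were 36 (7.09%, against 4.87% of all regions). With each library left out there were 20 to 26 (4.17 to 5.53%, against 3.44 to 4.71% of all regions). No pairing by replicate number is named in the labels or the methods. Correlations of deviations were 0.208, 0.0248 and 0.062 between libraries of the same number, the first being the highest of all pairs. They lay between -0.18 and 0.101 for other pairs, and whether the numbers mark a pairing was not settled. A fit with the replicate block gave 31 (6.61%, against 6.21% of all regions).

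The locus differences lay near 0 and changed sign. With depth-scaled summit tags they were -0.0739 at Igh, -0.066 at Trg and -0.105 over the 6 loci. The difference was 0.00131 at Trb with median centring and 0.00151 at Tra/Trd with means of all peaks. Without the 3 lowest libraries it was 0.0584 at Igk and -0.00347 over the 6 loci. With each library left out it lay between -0.0234 and 0.0519 at Igh, -0.08 and -0.00171 at Igk, -0.0237 and 0.0104 at Tra/Trd, -0.0283 and 0.0157 at Trb, -0.00834 and 0.038 at Trg, and -0.0248 and 0.0232 over the 6 loci.

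Differences in peak number became -0.25 at Igh, -0.417 at Trb and -4.67 over the 6 loci for peaks with p under 1e-05, and -0.5 at Igk without the 3 lowest libraries. With each library left out they lay between 0.25 and 14.25 at Igh, -0.75 and 1 at Igk, -0.5 and 0 at Igl, -6 and 0 at Tra/Trd, -1.75 and 3.67 at Trb, -0.25 and 1 at Trg, and -6.5 and 18 over the 6 loci.

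D gene regions numbered 3 when 500 bp counted as near. Alternatives chosen after seeing the data gave 2 regions called in every Ctrl and no WTAkita library for p under 1e-05 and 6 without the 3 lowest libraries, and 7 in WTAkita only without those libraries. With each library left out the counts were 1 to 5 in Ctrl only and 0 to 5 in WTAkita only. Shares over all regions were not counted under these alternatives. Fewer libraries make such regions easier to find, so no change at the loci is read from these counts. Of the recombination genes, 0 passed an unadjusted p of 0.05 with summit tags and 1 to 4 with each library left out, and Tcf7 was at 0.0313 with means of all peaks. The causes were not tested.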
